A study of Saccharomyces cerevisiae with 8 samples.

Results

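The DNA damage response genes described here are 9 genes of budding yeast: RNR2, RNR3, RNR4, HUG1, RAD54, DUN1, DIN7, PLM2 and MAG1. They are 9 of the 6002 protein-coding genes with a systematic name in the gene table used, and were taken by name. A sub-peak belonged to a gene when its summit, the base with the highest read pileup, lay between 400 bp before and 100 bp after the gene's start (sacCer3/R64 coordinates). Any called region over the same window was counted too.

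When DNA is damaged or replication stalls, the kinase Mec1 activates Rad53, and Rad53 activates Dun1. Dun1 relieves the repressor Crt1 (Rfx1), which holds the Tup1-Cyc8 corepressor at target promoters such as those of the RNR genes. The RNR genes encode ribonucleotide reductase, the enzyme that makes deoxynucleotides, and other induced genes encode repair enzymes. The repressed RNR3 promoter is a classical model of positioned nucleosomes in yeast.

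Open chromatin was mapped by ATAC-seq, in which Tn5 transposase inserts into accessible DNA, in haploid MATa yeast of S288c background. Per the labels, 2 samples each come from the control strain CEN4 and from CEN4*, in which lox sites flank the centromere of chromosome IV, untreated at 0 min. The other groups, of 2 samples each, were taken at 180 min with 1 uM beta-estradiol, again CEN4, and cen4-, the name of CEN4* after Cre has excised the centromere. The control strain thus also received the hormone, and the labels mention no DNA-damaging agent. The sources used here do not state what drives Cre or which share of cells lost the centromere.

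The data were 4 peak lists, 1 per strain code (8 or 11) and time, with no replicate lists. Which code is CEN4 and which is CEN4* is not stated in the sources used here, so the codes are kept. No test between lists was possible. Levels are given as relative pileup, the summit pileup divided by the genome-wide background pileup of the same list, both recovered from the deposited fold and -log10 p. That background was 413.8 and 439.2 for code 8 and 601.7 and 512.2 for code 11, at 0 and 180 min. Intervals are exact 95% Poisson intervals of the pileup and cover counting error only. In these populations, more cells with an open site and a site more open in each cell cannot be told apart. Pileup also depends on the number of DNA copies of a site. Copy number of chromosome IV or any other was not measured and cannot be told apart from either. All 6 MATa-specific marker genes (MFA1, MFA2, STE2, STE6, BAR1 and ASG7) had a promoter summit in every list. Of 4 MATalpha markers, 1 did in 3 of the lists and 2 in code 11 at 180 min.

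Most of these promoters were open but weakly so. At 0 min, 7 of the 9 genes had a promoter summit in each code (77.8%, exact interval 40.0 to 97.2%), where the share of all protein-coding genes was 64.7% for code 8 and 65.6% for code 11. At 180 min 8 of 9 did, against 64.6% and 64.3% of all genes. Of the 7 genes with a summit at 0 min, 5 stood below the lower quartile of all promoter summits in both codes: RNR3, HUG1, RAD54, DUN1 and MAG1. The same number stood below it in both 180 min lists. Which genes did so depended on the measure. By the deposited fold over local background at 0 min, RAD54 stood above that quartile, at percentiles 25.9 in code 8 and 27.7 in code 11. RNR4 then stood below it, at 9.91 and 18.2. The median relative pileup of the members was 2.39 in code 8 and 2.40 in code 11 at 0 min, against 3.68 and 3.62 over all promoters with a summit.

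**Figure D1:**
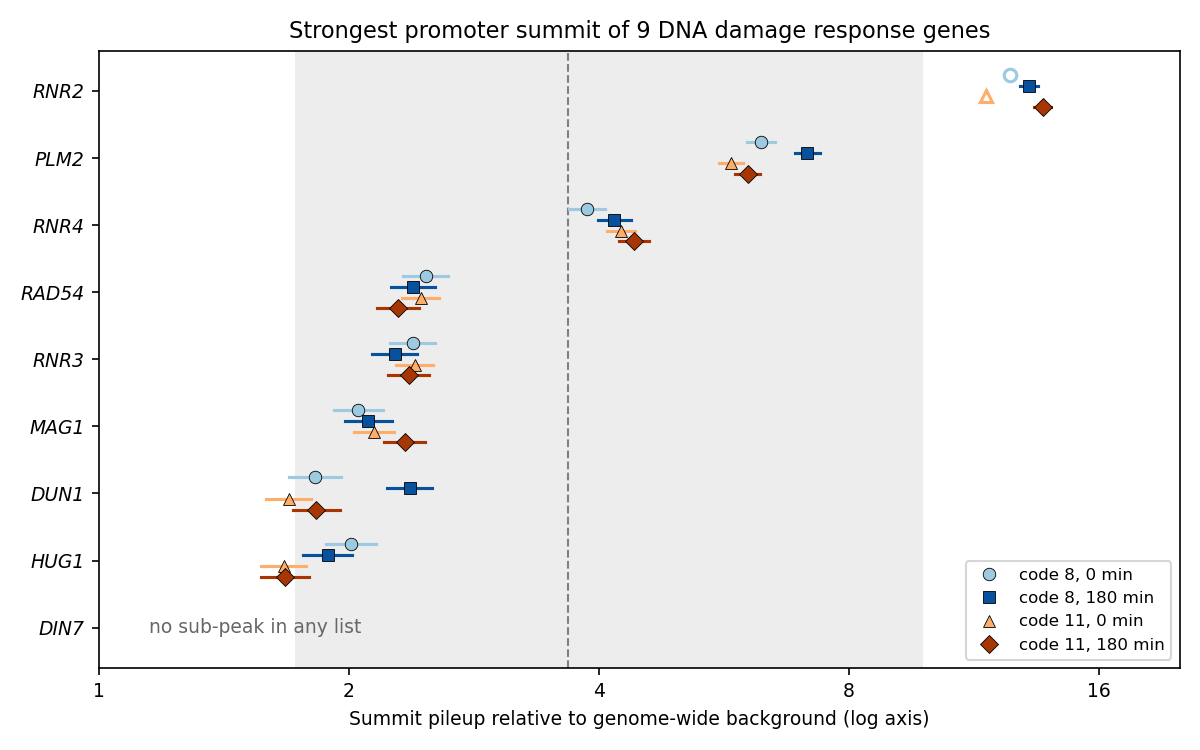
Relative pileup (log axis) of the strongest summit in each promoter window, by gene and list, with exact 95% Poisson intervals. Open symbols are RNR2 summits just outside the window, the grey band is the central 95% of all promoter summits shared by the 4 lists, and the dashed line is the mean of the 4 list medians. RNR2 lies between 11.7 and 13.7, PLM2 and RNR4 lie above the dashed line in all lists, and 5 genes lie below it.

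The 4 subunit genes of ribonucleotide reductase were compared first, with RNR1 as the related gene outside the set. RNR2 encodes the small subunit that carries the enzyme's radical cofactor. RNR2 (YJL026W, X 392404 to 393603, forward strand) had a strong summit on the edge of the window, higher than any summit inside the other members' windows. The summit lay 402 bp before the start in code 8 and 405 bp in code 11 at 0 min, and 399 bp before it in both codes at 180 min. Its relative pileup was 12.5 and 13.2 for code 8 and 11.7 and 13.7 for code 11, at 0 and 180 min, above 99.4 to 99.6% of promoter summits.

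RNR2 was therefore the only member to gain a promoter summit by the window rule, in both codes, and no member lost one. The gain was a shift of 3 bp and 6 bp across the window's edge. Over all genes without a summit at 0 min, 6.43% gained one in code 8 and 4.46% in code 11; of those with one, 3.73% and 4.39% lost it. Among the 136 genes that gained one in code 8, 10 had a 0 min summit within 100 bp of the new one, and among 92 in code 11, 13 did.

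The region over the RNR2 window was 1472 to 1535 bp wide and held 3 summits in every list. The summit at 402 bp lay inside the open reading frame YJL027C, and the one at 812 bp inside YJL028W. The third, at 1292 bp with a relative pileup of 4.51 in code 8 at 0 min, lay on the tRNA gene EMT5 (391043 to 391115). At the RNR2 summit the ratio of 180 to 0 min was 1.05 (log2 0.08, interval 0.02 to 0.13) in code 8 and 1.17 (log2 0.23, 0.18 to 0.28) in code 11. The latter lay at percentile 96.8 of promoter changes on the other 15 chromosomes, inside their central 95% (-0.20 to 0.24).

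RNR4, which encodes the other small-subunit protein, partner of Rnr2, had an open but secondary summit in its window. RNR4 (YGR180C, VII 855264 to 856301, reverse strand) had its window summit 187 to 191 bp before the start. Its relative pileup was 3.87 (3.68 to 4.07) and 4.17 (3.98 to 4.37) in code 8, and 4.25 (4.08 to 4.42) and 4.41 (4.23 to 4.59) in code 11. All 4 values stood above the median promoter, at percentiles 54.6 to 63.8.

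A far stronger summit stood farther out in the same region, 1877 to 1888 bp wide with 6 summits in each list. It lay 583 to 589 bp before the RNR4 start, with a relative pileup of 13.4 and 13.8 for code 8 and 12.4 and 14.3 for code 11. These values were above those of the RNR2 edge summit in every list. No gene in the table lies under this RNR4 summit. Of the next summits in code 8 at 0 min, that 1143 bp out lies on a tRNA gene (857378 to 857491) and that 957 bp out lies 120 bp from it, and the last one, 1841 bp out, lies 145 bp before TIM13. The local background of the caller was 2.02 to 2.10 times the genome-wide one at the RNR4 window summit. By the authors' fold over local background, 1.91 to 2.09, it stood only at percentiles 9.91 to 18.2.

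RNR3 encodes a large subunit that is strongly damage-inducible. RNR3 (YIL066C, IX 238099 to 240708, reverse strand) had a single narrow summit 277 to 281 bp before its start, in a region of 181 to 189 bp. The narrowest region in any list was 150 bp. Its relative pileup was 2.39 (2.24 to 2.54) and 2.27 (2.13 to 2.42) in code 8, and 2.40 (2.28 to 2.53) and 2.36 (2.23 to 2.50) in code 11. The 4 values overlapped within counting error, at percentiles 16.0 to 19.3 of promoter summits, and the range of 1.06-fold was the smallest of the 7 members with a window summit in all lists.

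RNR1, the large subunit gene used in normal S phase, had a summit 400 to 407 bp before its start in all 4 lists. Its relative pileup was 5.00 and 5.08 for code 8 and 4.63 and 4.52 for code 11. These values were higher than those of RNR3 in every list. As at RNR2, the window's edge made it a gained summit in code 11, where it lay at 402 bp and then at 400 bp.

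**Figure D2:**
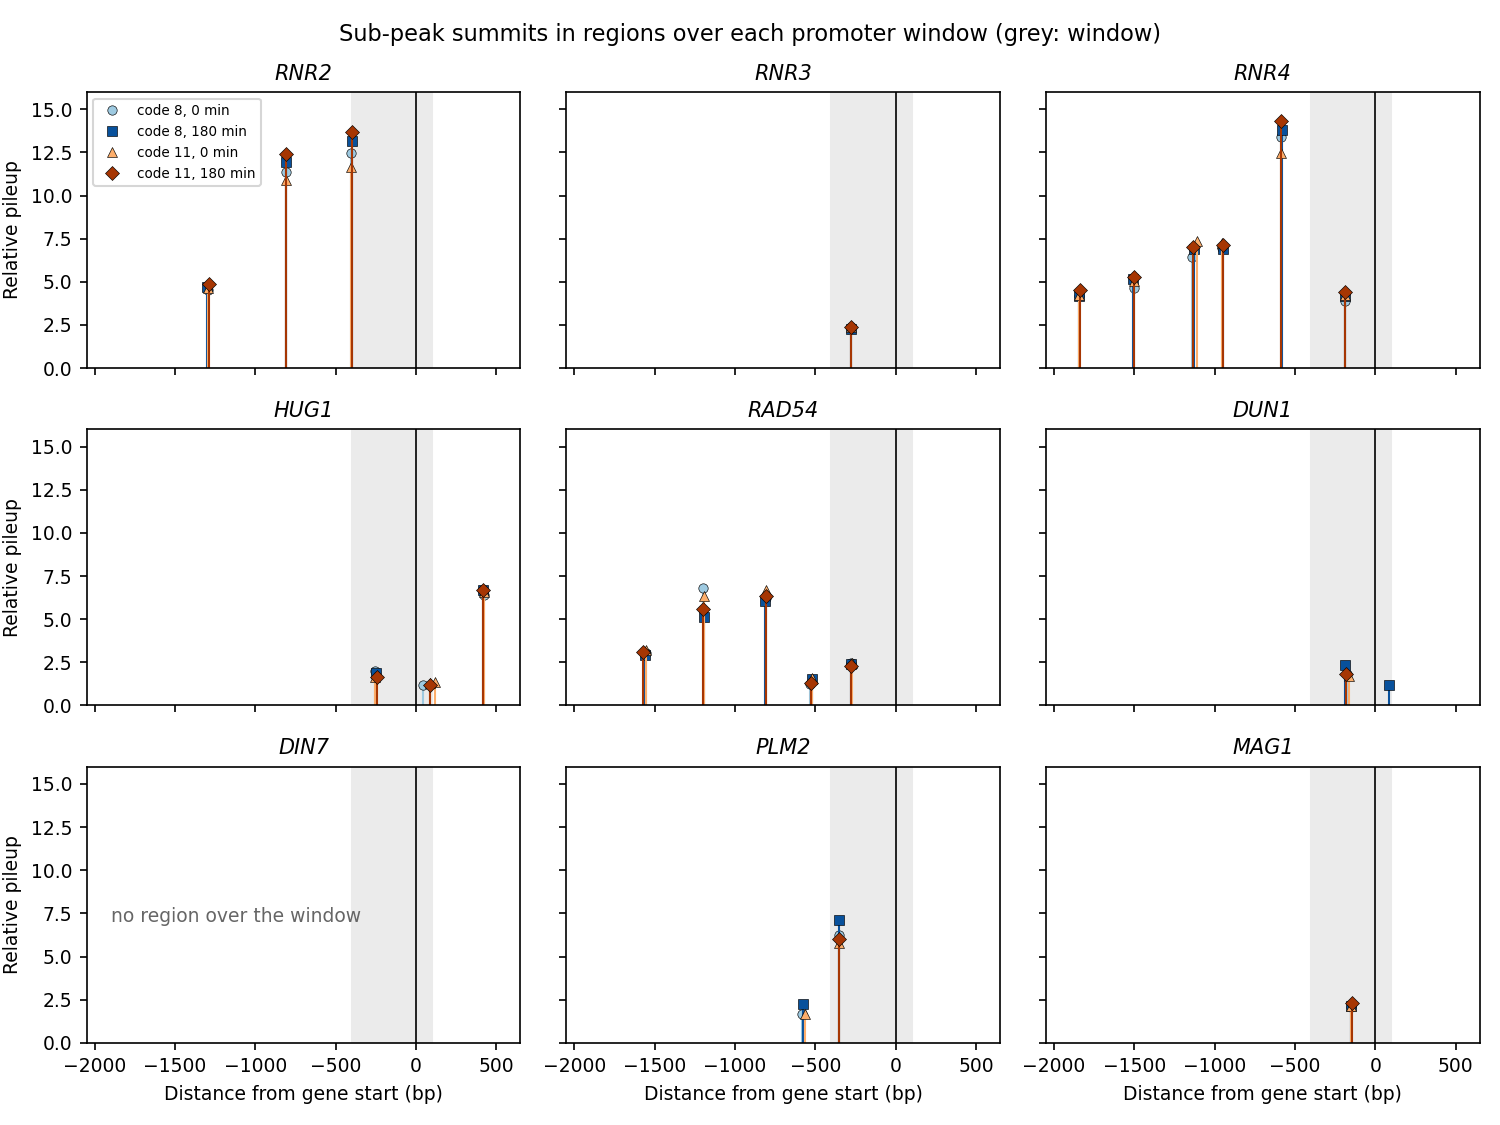
Sub-peak summits of every region over a promoter window, with distance from the gene start in bp (negative is upstream) on the horizontal axis and relative pileup on the vertical axis. Grey marks the window. RNR2, RNR4 and RAD54 lie in wide regions with 3, 6 and 5 summits, while RNR3 and MAG1 have 1 weak summit each and DIN7 has no region.

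HUG1 encodes a small protein, induced through Mec1, that is related to the reductase regulators Sml1 and Dif1. HUG1 (YML058W-A, XIII 158760 to 158966, forward strand) was the member with the lowest mean level among those called in all lists. Its strongest summit lay 246 to 256 bp before the start. Relative pileup there was 2.01 (1.88 to 2.15) and 1.89 (1.76 to 2.02) in code 8, and 1.67 (1.57 to 1.78) and 1.68 (1.56 to 1.79) in code 11. Code 8 was higher than code 11 at both times, and at 0 min the intervals did not overlap.

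The ratio of code 8 to code 11 at HUG1 was 1.21 at 0 min (log2 0.27, 0.14 to 0.40) and 1.13 at 180 min (log2 0.17, 0.03 to 0.31). These lay at percentiles 99.8 and 98.6 of promoters on the other chromosomes, which were not matched for level. In level, HUG1 stood at percentiles 2.18 to 8.47 of promoter summits, where counting error is larger. Relative to the median of those promoters the ratios were 1.19 and 1.18, both under the 1.3-fold used here as a call. Between codes 0.0525% of promoters were called higher in code 8 and 0.0788% lower at 0 min, and 1.98% and 0.214% at 180 min. The same summit lies 246 to 256 bp before NTE1, which is transcribed the other way, so it cannot be assigned to HUG1 alone.

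Downstream of HUG1 stood a much stronger summit. It lay 416 to 420 bp after the HUG1 start, which is 203 to 207 bp before SML1, the gene of a related reductase inhibitor that is degraded after damage. SML1 had a relative pileup of 6.39 and 6.71 for code 8 and 6.57 and 6.71 for code 11, 3.17 to 4.01 times HUG1 in the same list. In code 11 at 0 min a single region of 1191 bp covered both summits, and in the other 3 lists the HUG1 region was 161 to 207 bp wide and separate. DIF1, the other related gene, which controls the location of the small subunits, had 8.59 and 8.18 for code 8 and 8.72 and 9.16 for code 11.

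DUN1, the kinase gene, was the one member past 1.3-fold over time. DUN1 (YDL101C, IV 280307 to 281848, reverse strand) lies 168 kb from CEN4. Its summit stood 165 to 186 bp before the start, with a relative pileup of 1.82 (1.69 to 1.96) and 2.37 (2.22 to 2.51) in code 8, and 1.69 (1.59 to 1.80) and 1.83 (1.71 to 1.95) in code 11. The 180 min value of code 8 stood apart from the other 3, and its interval overlapped none of theirs.

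In code 8 the DUN1 ratio of 180 to 0 min was 1.298 (log2 0.38, 0.24 to 0.51), or 1.34 relative to the median of promoters on the other 15 chromosomes. In code 11 it was 1.08 (log2 0.11, -0.02 to 0.24). Over all 3741 promoters in code 8, 1.76% were past 1.3-fold higher and 0.214% lower; in code 11 the shares were 0% and 0.239% of 3767. So 1 of 7 members was called in code 8 and 0 of 7 in code 11, with background shares in either direction of 1.98% and 0.239%. On chromosome IV alone 12.1% of 522 promoters were past the fold in code 8, against 0.342% elsewhere. In code 11 these shares were 0.196% and 0.246%.

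DUN1 lay among the higher values of its chromosome in code 8. The median log2 change of chromosome IV promoters in code 8 was 0.18, and that of the other chromosomes was -0.05. Within 50 kb of DUN1 the 46 other promoters had a median of 0.21 and a range of 0.07 to 0.41, and 2 of them were above DUN1. Relative to the chromosome IV median the DUN1 ratio was 1.14, which is not past the fold. The difference between the codes' log2 changes was 0.27 at DUN1, against a median of 0.13 on chromosome IV and -0.08 elsewhere.

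At 180 min a second sub-peak was called in code 8, 87 bp inside DUN1, with a relative pileup of 1.16. It stood near the calling floor, with a -log10 q of 2.63 and a lowest relative pileup of 1.11 in that list. The region, which takes in this weak sub-peak, grew from 212 to 463 bp. In code 11 the region was 209 and 192 bp wide. RAD53, the related kinase gene upstream of Dun1 in the pathway, is on chromosome XVI. In its window it had 3.41 and 3.41 for code 8 and 3.36 and 3.76 for code 11, above DUN1 in each list. A stronger RAD53 summit lay outside the window, 655 to 660 bp before the start. That summit had 3.99 and 3.96 for code 8 and 3.79 and 3.98 for code 11.

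PLM2, on the same chromosome, encodes a forkhead-associated domain protein that binds DNA and is induced by damage. PLM2 (YDR501W, IV 1451353 to 1452918, forward strand) lies 1002 kb from CEN4. Its summit, 353 to 355 bp before the start, had a relative pileup of 6.27 (6.03 to 6.51) and 7.12 (6.88 to 7.38) in code 8, and 5.77 (5.58 to 5.96) and 6.04 (5.83 to 6.25) in code 11. It stood at percentiles 81.7 to 89.8, and the 180 min value of code 8 was again the highest.

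The PLM2 ratio over time was 1.14 in code 8 (log2 0.18, 0.11 to 0.26) and 1.05 in code 11 (log2 0.07, -0.005 to 0.14). Relative to the chromosome IV median, the code 8 ratio was 1.00. The 43 other promoters within 50 kb had a median log2 change of 0.15, and 16 of them were above PLM2. By fold over local background the value in code 8 turned to -0.05, while the local background went from 1.21 to 1.42 times the genome-wide one. This summit lies 145 to 147 bp before RPL37B, a ribosomal protein gene transcribed the other way, and is closer to it than to PLM2.

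A weaker sub-peak of the PLM2 region, inside RPL37B, had 1.70 and 2.23 in code 8 (log2 0.39, 0.25 to 0.53). The median log2 change of chromosome IV promoters there was 0.18. By fold over local background the sub-peak had 1.40 and 1.54, while its local background went from 1.22 to 1.44 times the genome-wide one. In code 11 the sub-peak had 1.69 at 0 min and none matched it at 180 min. TOS4, the paralog of PLM2, had only a weak summit in its window, 1.28 to 1.37 in the 4 lists. Its strong one lay 433 to 435 bp before the start, outside the window, with 9.87 and 10.2 for code 8 and 9.20 and 10.8 for code 11.

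DIN7, the remaining member on chromosome IV, encodes a mitochondrial nuclease related to Exo1. DIN7 (YDR263C, IV 994242 to 995534, reverse strand) had no region over its window in any of the 4 lists. The nearest summits lay 2579 to 2608 bp before its start and 2590 to 2593 bp after it, beyond the far end of the gene. The lists name only sites past the authors' threshold, so its level is unknown. EXO1 had a weak promoter summit in all lists, from 1.63 to 1.74.

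**Figure D3:**
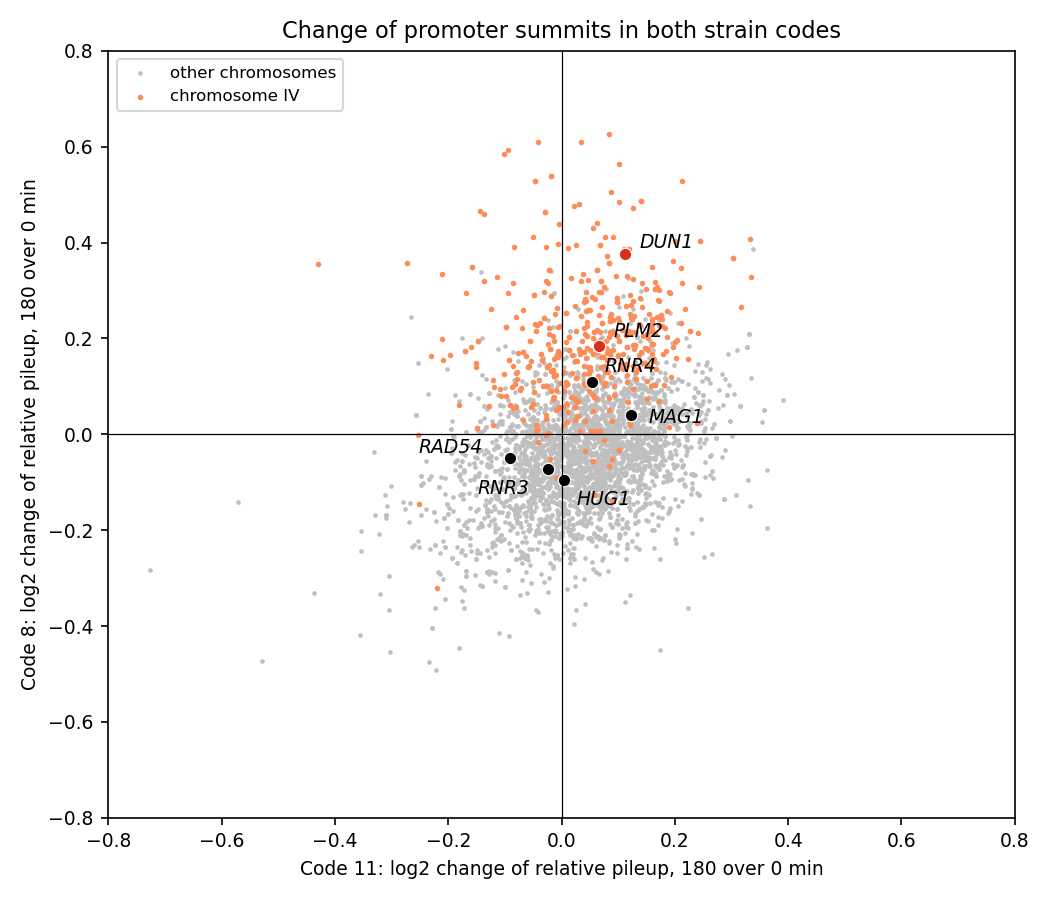
Log2 change of relative pileup from 0 to 180 min at the strongest promoter summit, code 11 on the horizontal and code 8 on the vertical axis, for 3646 genes matched in both codes, 502 of them on chromosome IV. Labelled points are the 7 members with values. DUN1 (0.11, 0.38) and PLM2 (0.07, 0.18) lie within the chromosome IV points and the other 5 within the points of the other chromosomes.

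Neither repair enzyme gene outside chromosome IV was past the fold. RAD54 encodes a DNA translocase of homologous recombination. RAD54 (YGL163C, VII 193707 to 196403, reverse strand) had its window summit 274 to 279 bp before the start, with a relative pileup of 2.47 (2.32 to 2.63) and 2.39 (2.25 to 2.54) in code 8, and 2.44 (2.32 to 2.57) and 2.29 (2.16 to 2.43) in code 11. These intervals overlapped. The log2 change was -0.05 (-0.17 to 0.08) in code 8 and -0.09 (-0.20 to 0.02) in code 11.

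The RAD54 region ran for 1539 to 1553 bp toward SUT1, a transcription factor gene transcribed the other way, and held 5 summits. The summit 1201 bp out in code 8, which lies 534 bp before SUT1, had 6.82 at 0 min and 5.11 at 180 min (log2 -0.42, -0.50 to -0.34). In code 11 it had 6.32 and 5.60 (log2 -0.17, -0.24 to -0.10). These changes lay at percentiles 0.518 and 5.43 of all sub-peaks matched over time on the other chromosomes. A low sub-peak lay between the strong summits and the window summit. It had 1.22 and 1.56 in code 8 but 1.602 and 1.28 in code 11, opposite in order.

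RDH54, a gene related to RAD54 that also acts in recombination, had a promoter summit in 3 lists, with 2.11 and 2.12 in code 8 and 1.90 in code 11 at 180 min. At 0 min no region covered its window in code 11. In these 3 lists RAD54 was slightly the higher of the pair, with RDH54 at 0.831 to 0.885 of its level.

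MAG1 encodes the glycosylase that removes alkylated bases, the first step of base excision repair. MAG1 (YER142C, V 455146 to 456036, reverse strand) had a single summit 144 to 152 bp before its start. Its relative pileup was 2.05 (1.92 to 2.19) and 2.11 (1.98 to 2.25) in code 8, and 2.14 (2.03 to 2.26) and 2.34 (2.20 to 2.47) in code 11. The log2 change was 0.04 (-0.10 to 0.18) and 0.12 (0.01 to 0.24), at percentiles 81.0 and 79.4 of the other chromosomes. The summit is shared with DDI1, a damage-inducible gene transcribed the other way from 131 to 139 bp on its far side, so both genes have the same values.

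Ordered by geometric mean over the 4 lists, the 7 members with a window summit in all of them ran from PLM2 (6.28) and RNR4 (4.17) to RAD54 (2.40), RNR3 (2.35), MAG1 (2.16), DUN1 (1.91) and HUG1 (1.81). RAD54 and RNR3 had overlapping intervals in all 4 lists, whereas those of PLM2 and RNR4, and of RNR4 and RAD54, overlapped in none. RNR3 and MAG1 overlapped in the 180 min lists only, MAG1 and DUN1 in the code 8 lists only, and DUN1 and HUG1 in all but code 8 at 180 min. DUN1 had the widest range, 1.40-fold between its lowest and highest list. With RPL37B set aside because it shares the summit, the genes most like PLM2 over the 4 lists were GDH2, SIT4 and ITR1, within 0.06 to 0.08 log2 units in every list. Those most like DUN1 were RTN2, RRP1 and YDR338C, within 0.12 to 0.13. All 6 lie on chromosome IV, as do 502 of the 3646 genes matched over time in both codes. They were picked by these same values from 3649 genes with a summit in all 4 lists, so their place is not a separate observation.

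**Figure D4:**
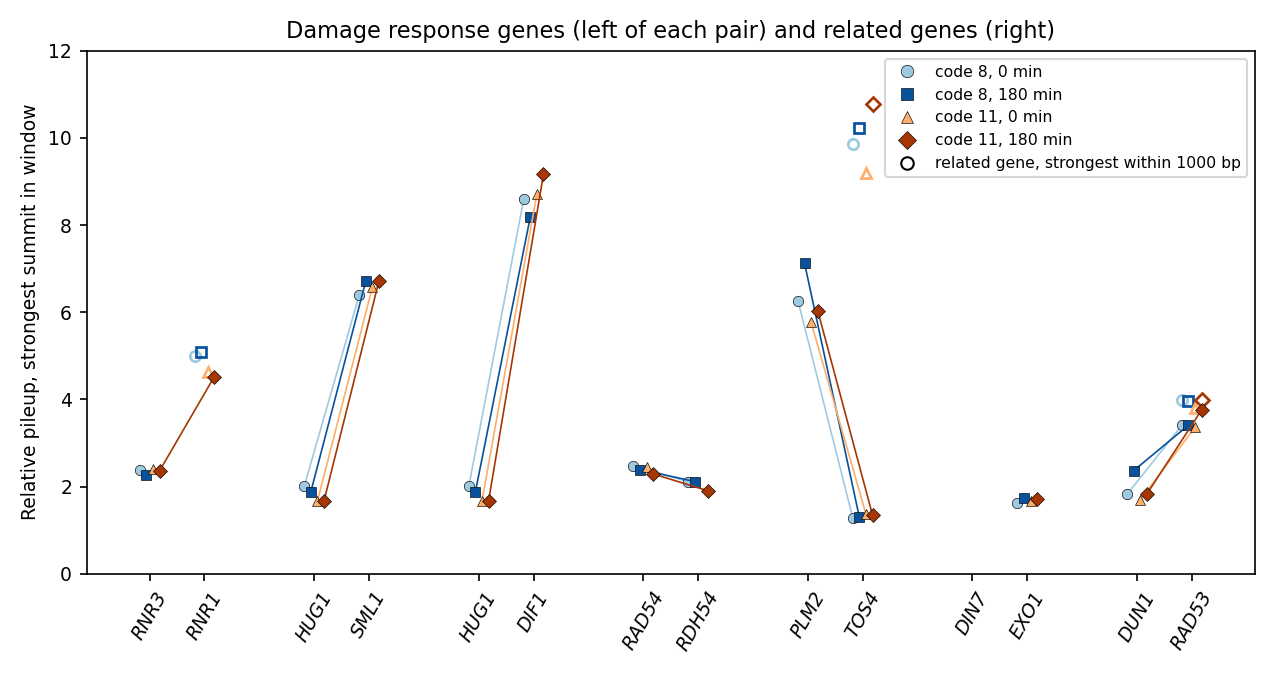
Relative pileup of the strongest summit in the promoter window of 6 damage response genes and their related genes, by list; a line joins the pair within a list. Open symbols give a stronger summit of the related gene within 1000 bp before its start. SML1, DIF1 and RAD53 stand above their partner in all 4 lists, and TOS4 does so only by its summit outside the window.

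The members' median changes lay close to those of all promoters. The median log2 change of the 7 was 0.04 in code 8 and 0.05 in code 11, against -0.03 and 0.04 over all promoters. The 5 members outside chromosome IV had a median of -0.05 in code 8 and 0.00 in code 11, close to the -0.05 and 0.04 of all promoters there. Between codes at 0 min the 7 ran from -0.13 (RNR4) to 0.27 (HUG1) in log2, with a median of 0.02. At 180 min 8 members could be compared. DUN1 was again the only one past the fold, at 1.36 relative to the other chromosomes and 1.16 relative to chromosome IV. Of all promoters 2.2% were past the fold (0.131% at 0 min). On chromosome IV the share at 180 min was 13.8% of 520 promoters, against 0.311% elsewhere.

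The wider pathway was read from 66 further genes in lists of checkpoint, reductase control, recombination, excision repair, tolerance and other inducible genes and relatives of members. Of these, 39 had a promoter summit in the 0 min list of code 8 and 41 in that of code 11. These shares of 59.1% and 62.1% lay slightly below the 64.7% and 65.6% of all protein-coding genes. Past the fold were 1 of 39 measured genes (code 8) and 0 of 38 (code 11), beside the background shares of 1.98% and 0.239% given above. The median log2 change was 0.00 and 0.02. By list, 9 of 17 checkpoint genes, 6 of 9 reductase regulators, 7 of 8 recombination genes, 8 of 17 excision and reversal genes and 4 of 9 tolerance genes had a summit in code 8 at 0 min, where 64.7% of all genes did. So had 3 of 4 other inducible genes and 6 of 7 relatives. The checkpoint list (52.9%), the excision and reversal list (47.1%) and the tolerance list (44.4%) lay under the share of all genes. The reductase regulators (66.7%) lay near it and the recombination list (87.5%) above it, from few genes each. In code 11 at 0 min these lists, in the same order, had 58.8%, 47.1%, 55.6%, 77.8% and 75.0%, against 65.6% of all genes. Some genes stand in more than 1 list, and DDI1 has the values of MAG1.

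The gene past the fold was RAD57, a recombination gene, 5.45 kb from CEN4. It had 1.79 and 2.70 in code 8 (log2 0.59, 0.46 to 0.73) and 1.85 and 1.73 in code 11 (log2 -0.09, -0.22 to 0.03). Relative to the chromosome IV median its log2 change in code 8 was 0.41, still past the fold. By the call used here, 12.1% of 522 chromosome IV promoters were past the fold in code 8. The 6 measured pathway genes on chromosome IV had a median log2 change of 0.22 in code 8 and -0.07 in code 11, and those elsewhere -0.03 and 0.03.

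In code 8 the pathway genes lost 0 of 39 summits, where all genes lost 3.73%, and 2 of 27 genes without one gained one (7.41%, against 6.43%). In code 11 they lost 4 of 41 (9.76%, against 4.39% of all genes) and gained 2 of 25 (8.00%, against 4.46%). RAD9, the checkpoint adaptor on chromosome IV, gained one in code 8, with 2.20 at 180 min and no region at 0 min. In code 11, RDH54 and RNR1 gained theirs as described above, and MEC3 of the checkpoint clamp (1.68) and RAD5 of damage tolerance (1.91) lost theirs with no region left. LCD1, the gene of the Mec1 partner Ddc2, lost its window summit in code 11, with a sub-peak 81 bp away that lay outside the window. WTM1, a nuclear anchor of the small subunits, gained one in code 8 (3.22) and lost one in code 11 (3.67), with a region over the window in all 4 lists. RFX1, the gene of the Crt1 repressor, had 4.78 and 5.01 for code 8 and 4.58 and 5.49 for code 11, not past the fold.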

How the data were processed

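Of the 8 samples, 4 deposited peak lists were used. Per the submitters' processing notes, Bowtie2 2.3.4.3, SAMtools, Picard, HOMER and MACS2 2.2.4 were used with sacCer3; their roles, pooling of experiments, the Tn5 shift and peak thresholds are not given in the sources used here. Code and time tag come from the list names. The authors deposited a score (10 times -log10 p, truncated), a fold ratio of the summit over local background, and -log10 p and -log10 q per sub-peak. From these, pileup and local background were solved, taking the fold as (pileup + 1)/(background + 1) and p as the upper Poisson tail; 99.1 to 99.8% of pileups came out whole within 0.05. The lowest local background among sub-peaks with -log10 p over 20 served as a list's genome-wide one. The number of reads is unknown.

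Genes came from the RefSeq R64 table, with strand from the systematic name; all names matched, DDC2 by synonym. A gene's strongest window summit was matched to the nearest summit within 100 bp in the other list. A change past 1.3-fold, relative to the median of promoters on the other 15 chromosomes, was called. Intervals of ratios are exact, conditional on both pileups. The recovery was run on data simulated with the same formulas. That run cannot test the formulas themselves or the choice of the genome-wide background. Named genes are all members, pathway genes past the fold or with a gained or lost summit, genes sharing a summit, and, for the members with the highest mean and the widest range, the 3 genes with the smallest largest log2 difference over the lists. SML1, DIF1, RAD53, RNR1, TOS4, EXO1 and RDH54 are named as relatives of members; RFX1, SUT1, MGT1 and RAD59 were named after their values were seen. The members and lists were chosen with earlier results of these data known. Alternatives were other windows, thresholds, scalings and matching rules. Motif searches were not made, since no sequence was used here. Tools were Python 3.11.15, NumPy 2.4.6, pandas 2.3.3 and SciPy 1.17.1.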

Additional observations from a re-analysis of the deposited data

Results flagged for a closer look

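In the 2 codes, values of opposite sign were found at the low RAD54 sub-peak and at 3 pathway genes. Each value had a counting interval on 1 side of 0. Pathway genes measured over time were 39 in code 8 and 38 in code 11. The rule was not applied to all promoters, so their share meeting it is unknown. The difference between codes was not tested, since each code has 1 list per time. At RAD54 the sub-peak about 530 bp before the start had a log2 change of 0.35 in code 8 and -0.32 in code 11. It had a low relative pileup, between 1.22 and 1.602 in the 4 lists. MGT1, an alkyl-DNA repair methyltransferase gene on chromosome IV, had 0.29 in code 8 and -0.17 in code 11. RAD59, a recombination gene on chromosome IV, had 0.15 and -0.21. DIF1 had -0.070 and 0.072, beside a median promoter outside chromosome IV of -0.05 and 0.04. The chromosome IV median was 0.18 in code 8 and 0.05 in code 11, and its part in the values of MGT1 and RAD59 was not tested.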

How the results depend on the processing

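Of 86 alternative values, 72 were counted as unchanged and 14 moved. Counts had to stay within 1.5 times the one reported, and a member's change within its counting interval. Medians had to move by less than the median half-width of the members' intervals, log2 0.13 in code 8 and 0.11 in code 11. That is not an interval of the median itself. With members outside chromosome IV only, the code 8 median went from 0.04 to -0.05 and was still counted as unchanged. Taking the strongest summit in each list returned the same value for every member and for the medians. With a window of 250 bp before to 50 bp after the start, members with a promoter summit were 4 and 4 in code 8 and 3 and 4 in code 11, at 0 and 180 min. The share of all genes with a summit in this window was not computed. The lower counts therefore cannot be called particular to these genes. The RNR2 gain went to 0 in both codes with a window of 1000 bp, with any region over the window, or with a window of 410 bp (chosen after seeing the data). With -log10 q of at least 50, code 8 had 2 gained members, since DUN1 stood at 49.5 at 0 min and 129 at 180 min. The share of all genes that gained one at this threshold was not computed. The DUN1 call went to 0 without centring and when set against chromosome IV. The PLM2 change in code 8 was -0.05 by fold over local background. No paired analysis was possible because the lists carry no replicate number, and leaving out a replicate could not be run. Counting error at weak summits limits what can be told apart: the interval of the DUN1 log2 change in code 8 ran from 0.24 to 0.51, against 0.02 to 0.13 at the strong RNR2 summit.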
